A study of Mus musculus with 6 samples.

Results

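The transcription regulators that give brown fat cells their identity were followed in brown adipose tissue of mice treated with ginsenoside Rb2. They were the 10 genes of the deposited count table named Prdm16, Mecom, Ebf1, Ebf2, Zfp516, Ehmt1, Ctbp1, Ctbp2, Zic1 and Lhx8, out of 45777 genes in all, and all 10 had enough counts to be tested. Brown adipose tissue burns fat and sugar to produce heat, and ginsenoside Rb2 is a steroid-like saponin of ginseng. Male wild-type C57Bl6/J mice received intraperitoneal injections for 2 weeks, either of Rb2 (3 mice) or of phosphate-buffered saline (PBS, 3 mice). Dose and age are not given in the labels. The RNA came from whole tissue, so fewer cells of a type and less RNA per cell cannot be told apart in any value below. Ucp1, the heat-producing uncoupling protein that defines the tissue, was at 3674 ± 910 CPM (a gene's reads scaled to the total of its library) with Rb2 and 3983 ± 711 CPM with PBS (SD, n = 3 each; edgeR adjusted p = 0.749).

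Brown adipocytes of the classical depots share a developmental lineage with skeletal muscle, and the choice between these fates, as well as the difference from white fat cells, is set by a small group of nuclear proteins. PRDM16 is a zinc finger protein that turns on brown-selective genes with PPARG, C/EBPB and EBF2, and turns off white-selective genes together with the corepressors CTBP1 and CTBP2. MECOM, also called PRDM3 or EVI1 after its gene products, is its closest relative. EHMT1 is a histone H3 lysine 9 methyltransferase that works in the PRDM16 complex, and ZFP516 is a cold-induced zinc finger protein that binds the Ucp1 promoter. EBF1 and EBF2 are early B-cell factors, of which EBF2 marks and directs brown precursors. Zic1 and Lhx8 encode a zinc finger and a LIM homeodomain factor known as markers of the classical brown depot.

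After Rb2 the regulators split. Prdm16, Mecom and Zfp516 fell, Ebf1, Ebf2, Zic1 and Lhx8 rose, and Ehmt1, Ctbp1 and Ctbp2 did not pass the test. Prdm16 was at 0.457 times its PBS level and Lhx8 at 2.76 times. Thus 7 of the 10 passed an adjusted p of 0.05 in edgeR's quasi-likelihood test, 4 upward and 3 downward, where 10.4% of all 16707 tested genes passed, 5.33% upward and 5.11% downward. In 9 of the 10 the 3 Rb2 libraries and the 3 PBS libraries did not overlap, against 35.8% of all tested genes. The median log2 fold change of the 10 was 0.21, beside -0.01 over all tested genes. In fits with 1 library left out, 1 to 7 members passed, and Prdm16 alone did so in all 6. The members were chosen with earlier results of these data known, so their share of calls is not independent evidence.

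The start regions of 4 of these genes are shown because they include both members of the PRDM pair that fell and both depot factors. RefSeq promoter windows (GRCm38.p6, 250 bases before to 50 after a start site) were found for 8 of the 10 genes, 11 windows in all. Each is printed 5′ to 3′ on the strand of the gene. Capitals mark the longest run of letters that Prdm16 and Mecom have in common. The windows lie at chr4:154636824-154637123 (minus strand) for Prdm16, chr3:30509710-30510009 (minus) for the upstream start of Mecom, chr9:91365719-91366018 (minus) for Zic1 and chr3:154330511-154330810 (minus) for Lhx8.
Prdm16: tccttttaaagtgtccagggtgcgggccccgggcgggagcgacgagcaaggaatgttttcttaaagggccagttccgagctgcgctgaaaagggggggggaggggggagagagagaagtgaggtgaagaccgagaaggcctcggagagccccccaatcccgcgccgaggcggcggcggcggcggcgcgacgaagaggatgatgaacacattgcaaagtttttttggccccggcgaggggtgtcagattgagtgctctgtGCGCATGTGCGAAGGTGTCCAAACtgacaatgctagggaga
Mecom: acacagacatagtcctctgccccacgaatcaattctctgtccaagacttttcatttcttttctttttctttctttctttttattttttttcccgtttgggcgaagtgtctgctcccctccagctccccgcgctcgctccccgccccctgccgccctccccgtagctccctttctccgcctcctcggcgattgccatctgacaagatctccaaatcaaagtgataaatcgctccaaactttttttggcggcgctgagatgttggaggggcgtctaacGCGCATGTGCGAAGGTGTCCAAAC
Zic1: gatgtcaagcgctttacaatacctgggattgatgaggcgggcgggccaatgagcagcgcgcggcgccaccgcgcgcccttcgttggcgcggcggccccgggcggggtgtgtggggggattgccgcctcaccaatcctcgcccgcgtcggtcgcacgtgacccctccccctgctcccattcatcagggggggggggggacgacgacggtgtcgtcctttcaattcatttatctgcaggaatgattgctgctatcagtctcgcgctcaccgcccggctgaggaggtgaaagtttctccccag
Lhx8: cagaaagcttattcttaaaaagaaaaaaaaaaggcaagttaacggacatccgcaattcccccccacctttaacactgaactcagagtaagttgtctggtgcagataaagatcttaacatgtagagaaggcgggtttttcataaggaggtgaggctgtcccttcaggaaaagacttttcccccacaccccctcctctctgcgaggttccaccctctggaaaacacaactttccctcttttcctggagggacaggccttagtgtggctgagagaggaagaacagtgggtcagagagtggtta

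The Prdm16 and Mecom windows shared 24 identical bases just after the start site, beginning at base 10 from the start used for Prdm16 and at base 27 from that used for Mecom. The Prdm16 window lies wholly inside the span of the gene, whose 5′ end is at 154637360. Its base 10 is thus counted from an internal start. No other of the 32851 windows in the table held this run. In the other pairs of windows from different members, 52 pairs having been compared in all, the longest shared run was 13 bases (Prdm16 and Zic1). The Mecom run ends at the edge of its window. The windows differed in composition: G and C made up 61.0% for Prdm16, 52.0% for Mecom, 65.3% for Zic1 and 47.0% for Lhx8, where the median of all windows was 52.7%. CpG dinucleotides numbered 24, 19, 31 and 4 in the same order, with a median of 7 over all windows. A search on both strands for the EBF letters CCCNNGGG found 1 match in the 11 windows, in the downstream start of Mecom, and 13.7% of all windows held one. The letters GATAAG of EVI1 (7.44% of all windows), TAATTA of LIM homeodomain factors (5.29%) and GGGTGGTC of ZIC factors (0.807%) had no match in the 11 windows.

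CPM values are read counts scaled to a common library size with TMM factors. Total counts per library were between 83642183 and 92666780. The members' raw counts ran from 57 (Lhx8 in PBS 2) to 8875 (Ctbp1 in PBS 2), so none of them was near the floor of 3 counts. Libraries carry the numbers of the table's columns, 1, 3 and 4 for Rb2 and 1, 2 and 4 for PBS.

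Prdm16 (gene 70673; chromosome 4, 154316122 to 154637360 in GRCm38.p6) was at 12.4, 10.4 and 14.1 CPM in Rb2 1, 3 and 4, against 24.8, 25.3 and 30.6 CPM in PBS 1, 2 and 4. The highest Rb2 library lay well below the lowest PBS library. Its mean was 12.3 ± 1.89 CPM with Rb2 and 26.9 ± 3.21 CPM with PBS (SD, n = 3 each), a log2 fold change of -1.13 ± 0.15 SE (95% interval -1.48 to -0.79; edgeR adjusted p = 0.00584). Prdm16 also passed in each of the 6 fits that left out 1 library (adjusted p at most 0.0359).

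Mecom (gene 14013; chromosome 3, 29951296 to 30509759), the relative of Prdm16, was at 9.35, 9.30 and 10.6 CPM in Rb2 1, 3 and 4, against 12.7, 13.3 and 14.4 CPM in PBS 1, 2 and 4. The groups were separate. The fall was the smallest among the called members and its p the closest to the threshold (log2 fold change -0.46 ± 0.13 SE, edgeR adjusted p = 0.0488). Within a library, where no scaling between libraries enters, there were 1.33, 1.11 and 1.33 Prdm16 reads per Mecom read in Rb2 1, 3 and 4, against 1.96, 1.90 and 2.13 in PBS 1, 2 and 4. The ranges of this ratio did not overlap, and the exact two-sided permutation p was 0.1, the smallest that 3 against 3 can give.

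Zfp516 (gene 329003; chromosome 18, 82909688 to 83005314) was at 7.45, 5.87 and 5.72 CPM in Rb2 1, 3 and 4, against 9.43, 10.4 and 10.3 CPM in PBS 1, 2 and 4. All 3 Rb2 libraries were below all PBS libraries, with Rb2 1 the nearest to them. The log2 fold change was -0.66 ± 0.15 SE (95% interval -1.005 to -0.318, edgeR adjusted p = 0.0287).

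**Figure D1:**
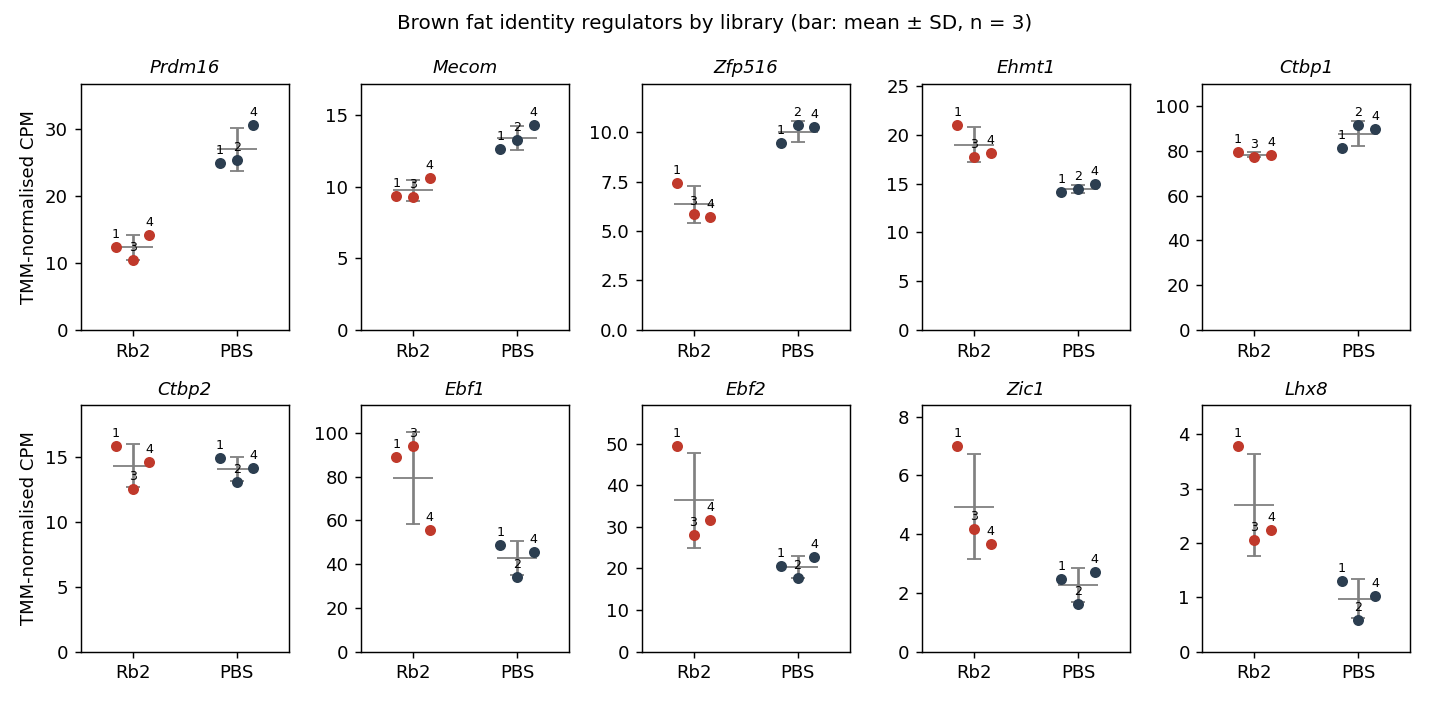
TMM-normalised CPM (vertical axes, starting at 0) of the 10 regulators in the 3 Rb2 libraries (red) and the 3 PBS libraries (dark), numbered as the columns of the table, with the group mean ± SD. The groups overlap for Ctbp2 alone; Prdm16 is at 10.4 to 14.1 CPM in the Rb2 libraries and at 24.8 to 30.6 CPM in the PBS libraries.

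None of the 3 partners through which PRDM16 silences genes passed in edgeR. Ehmt1 (gene 77683; chromosome 2, 24790769 to 24919643) was at 21.0, 17.8 and 18.1 CPM in Rb2 1, 3 and 4, against 14.1, 14.4 and 14.9 CPM in PBS 1, 2 and 4. The libraries were separate by group, but the gene did not pass the threshold (log2 fold change 0.39 ± 0.12 SE, 95% interval 0.11 to 0.67, edgeR adjusted p = 0.0713). It did pass by the Wald test of DESeq2 (adjusted p = 0.0481, where 21.5% of all genes with an adjusted p passed and 8 of the members did). A fit corrected for GC content and transcript length also called it (0.46, adjusted p = 0.0431).

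Ctbp1 (gene 13016; chromosome 5, 33247723 to 33275004), the most abundant member, was at 79.7, 77.2 and 78.2 CPM in Rb2 1, 3 and 4, against 81.3, 91.8 and 89.9 CPM in PBS 1, 2 and 4. The Rb2 libraries were lower without overlap, by little, and PBS 1 was close to them (log2 fold change -0.16 ± 0.12 SE, 95% interval -0.43 to 0.10, edgeR adjusted p = 0.382). In the fit corrected for GC content and length the estimate had the other sign (0.066). Ctbp2 (gene 13017; chromosome 7, 132986998 to 133124009) also encodes RIBEYE, a synaptic ribbon protein, from another start site, and counts per gene do not separate the products. It was at 15.8, 12.6 and 14.6 CPM in Rb2 1, 3 and 4, against 14.9, 13.1 and 14.2 CPM in PBS 1, 2 and 4, with the groups fully mixed (0.03 ± 0.13 SE, 95% interval -0.27 to 0.33, edgeR adjusted p = 0.914). Its interval leaves out changes past 0.33 on the log2 scale in either direction.

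Both EBF genes rose. Ebf1 (gene 13591; chromosome 11, 44618100 to 45008096) was at 88.7, 93.7 and 55.4 CPM in Rb2 1, 3 and 4, against 48.5, 34.04 and 45.5 CPM in PBS 1, 2 and 4. Rb2 4 stood apart from the other Rb2 libraries and was close to PBS 1. The mean was 79.3 ± 20.8 CPM with Rb2 and 42.7 ± 7.64 CPM with PBS (SD, n = 3 each; log2 fold change 0.89 ± 0.22 SE, edgeR adjusted p = 0.0367).

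Ebf2 (gene 13592; chromosome 14, 67233292 to 67430952), the brown-selective family member, was at 49.3, 28.0 and 31.7 CPM in Rb2 1, 3 and 4, against 20.5, 17.6 and 22.8 CPM in PBS 1, 2 and 4. Here Rb2 1 was the high library, while Rb2 3, the highest for Ebf1, was the lowest of the Rb2 libraries (0.84 ± 0.21 SE, edgeR adjusted p = 0.0416). Accordingly the ratio of Ebf1 to Ebf2 reads varied from 1.75 to 3.35 among the Rb2 libraries and from 1.93 to 2.37 among the PBS libraries. These ranges overlapped (exact two-sided permutation p = 1.0).

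Prdm16 and Ebf2 can be set side by side within each library. There were 0.251, 0.370 and 0.445 Prdm16 reads per Ebf2 read in Rb2 1, 3 and 4, against 1.21, 1.44 and 1.34 in PBS 1, 2 and 4. Prdm16 thus had fewer reads than Ebf2 in each Rb2 library and more in each PBS library, counted as reads and not per length. Prdm16 was lower and Ebf2 higher in all Rb2 libraries, so the ratio had to separate the groups. It restates the 2 changes and is no further test (exact two-sided permutation p = 0.1, the smallest possible).

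The brown depot factors Zic1 and Lhx8 also rose, and they had the lowest counts of the 10. Zic1 (gene 22771; chromosome 9, 91358058 to 91365768) was at 6.99, 4.18 and 3.65 CPM in Rb2 1, 3 and 4, against 2.48, 1.63 and 2.72 CPM in PBS 1, 2 and 4 (log2 fold change 1.12 ± 0.29 SE, edgeR adjusted p = 0.0430). Rb2 1 was far above the rest, and Rb2 4 was the nearest to the PBS libraries. With Rb2 1 left out the log2 fold change of Zic1 was 0.78, beside 0.81 for Ebf1. The Zic1 span overlaps that of Zic4 on the other strand by 138 bases, and Zic4 had 0.400 to 0.757 CPM with Rb2 and 0.310 to 0.634 CPM with PBS.

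Lhx8 (gene 16875; chromosome 3, 154306288 to 154330560) was at 3.78, 2.06 and 2.25 CPM in Rb2 1, 3 and 4, against 1.31, 0.590 and 1.03 CPM in PBS 1, 2 and 4. Again Rb2 1 was the highest, and PBS 2, with 57 reads, the lowest library. The log2 fold change was 1.47 ± 0.35 SE (95% interval 0.68 to 2.26, edgeR adjusted p = 0.0321). Reads of Zic1 per read of Lhx8 were 1.85, 2.03 and 1.63 in Rb2 1, 3 and 4, against 1.90, 2.77 and 2.63 in PBS 1, 2 and 4. These ratios overlapped between the groups (exact two-sided permutation p = 0.2).

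**Figure D2:**
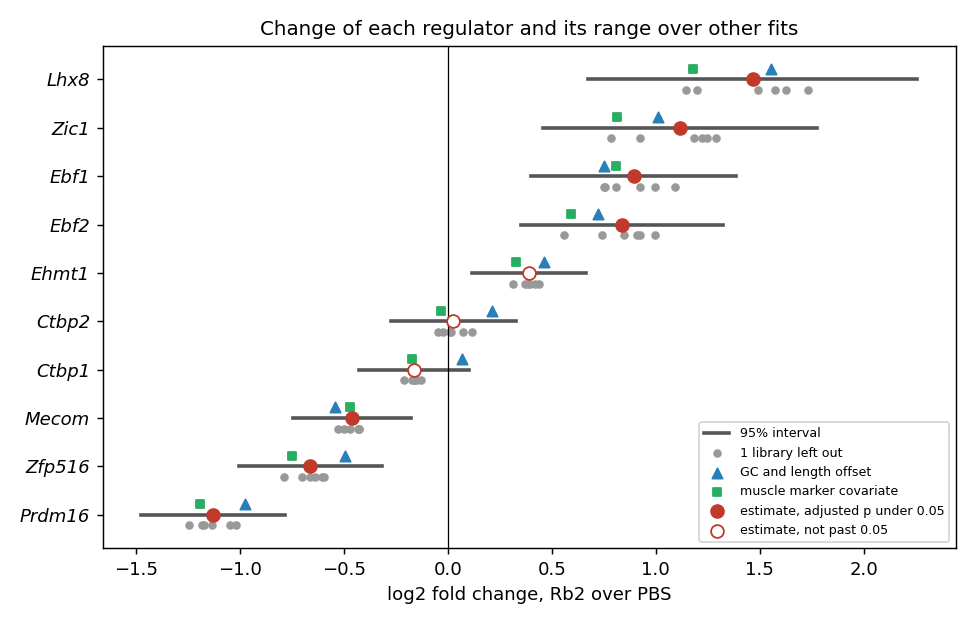
Log2 fold change of Rb2 over PBS (horizontal axis) for each regulator, as estimate with 95% interval, with the 6 estimates that each leave out 1 library (grey), the estimate corrected for GC content and length (blue) and that with muscle markers as a covariate (green). Filled circles passed an adjusted p of 0.05, from Prdm16 (-1.13) to Lhx8 (1.47); the estimates of Ctbp1 and Ctbp2 lie on either side of 0 depending on the fit.

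The calls of the members other than Prdm16 changed when single libraries were left out. When a PBS library was dropped, 1 of the 10 passed each time, Prdm16, beside 1.95% of all tested genes without PBS 1, 1.77% for PBS 2 and 9.09% for PBS 4. In the fit lacking Rb2 1, Prdm16 and Zfp516 passed (3.19% of all genes). Prdm16 and Ebf2 passed in the fit lacking Rb2 3 (3.48%), and in that lacking Rb2 4 the same 7 as with all libraries (13.3%). The adjusted p of the other called members reached 0.108 for Zfp516, 0.142 for Ebf2, 0.143 for Mecom, 0.135 for Ebf1, 0.145 for Zic1 and 0.119 for Lhx8 in these fits. No estimate of the 7 called members, nor that of Ehmt1, changed sign in any of the 17 alternative fits.

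Relative to transcript length, several regulators held different places in the order of levels in the 2 groups, and the places depended on the length used. CPM per kilobase of the longest GENCODE transcript put Ctbp1 first in both groups (21.8 ± 0.34 with Rb2 and 24.4 ± 1.55 with PBS; SD, n = 3 each), followed by Ebf1 (13.3 ± 3.49 with Rb2, 7.14 ± 1.28 with PBS) and Ebf2 (6.98 ± 2.19 with Rb2, 3.904 ± 0.50 with PBS). Prdm16 took place 7 with Rb2 at 1.43 ± 0.22 CPM per kilobase, where its range overlapped those of Mecom above it and Lhx8 below it. With PBS it took place 5 at 3.13 ± 0.37, and its range overlapped neither that of Ctbp2 above nor that of Ehmt1 below. The lowest levels with Rb2 were those of Lhx8 (1.30), Zic1 (0.881) and Zfp516 (0.821), with overlapping ranges between neighbours, and with PBS those of Lhx8 (0.470) and Zic1 (0.406), also overlapping. With the union of all exons as length Prdm16 took place 6 with Rb2 (1.32 CPM per kilobase, range 1.11 to 1.51) and place 4 with PBS (2.885, range 2.66 to 3.28). By that length Mecom was below Prdm16 in both groups, at 0.785 with Rb2 and 1.08 with PBS, and Ctbp2 was above Prdm16 with Rb2 (2.30) and below it with PBS (2.26).

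**Figure D3:**
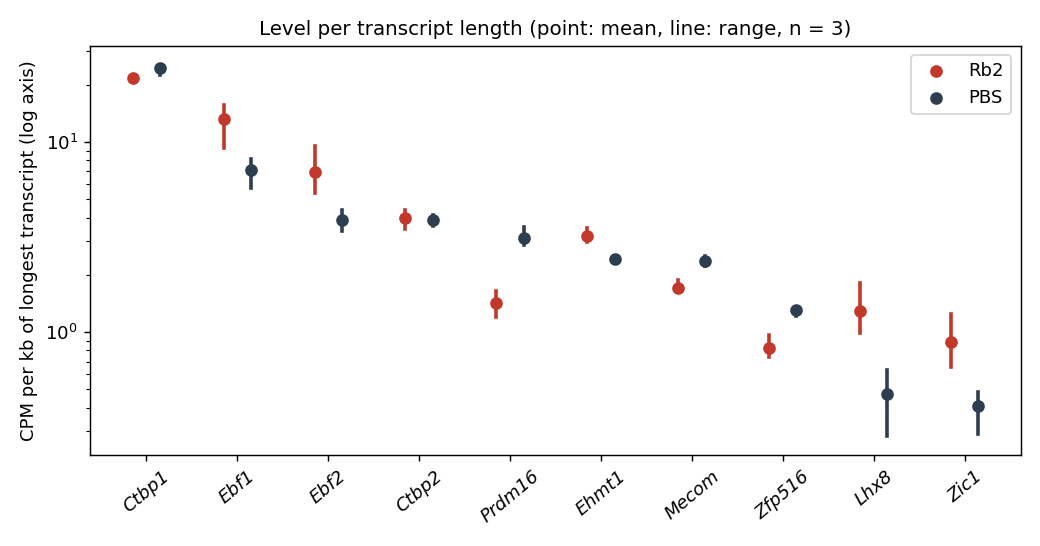
CPM per kilobase of the longest transcript (vertical log axis) for the 10 regulators in Rb2 (red) and PBS (dark), ordered by the PBS mean; points are means and lines the range of 3 libraries. By this length Prdm16 stands below Mecom with Rb2 (1.43, beside 1.72) and above it with PBS (3.13, beside 2.36); by the union of exons it is above Mecom in both groups.

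A long noncoding RNA gene inside Prdm16 went the other way. 5930403L14Rik (gene 320939; chromosome 4, 154630691 to 154636367, 5677 bases) lies on the same strand, 993 bases inside the 5′ end of the Prdm16 span, and no exon of Prdm16 in the GENCODE annotation falls within it. It was at 108, 74.9 and 43.5 CPM in Rb2 1, 3 and 4, against 20.6, 23.4 and 29.4 CPM in PBS 1, 2 and 4 (log2 fold change 1.63 ± 0.33 SE, edgeR adjusted p = 0.0328). Its adjusted p was 0.106 with PBS 1 left out, 0.119 for PBS 2, 0.0601 for Rb2 1 and 0.0900 for Rb2 3, none of which passed. There were 0.115, 0.138 and 0.325 Prdm16 reads per read of 5930403L14Rik in Rb2 1, 3 and 4, against 1.203, 1.08 and 1.04 in PBS 1, 2 and 4. The ranges of this ratio did not overlap (exact two-sided permutation p = 0.1, the smallest possible). They could not overlap, since 1 gene was lower and the other higher in all Rb2 libraries, so the ratio is no further test. Both genes lie on 1 strand, so unspliced Prdm16 RNA and the noncoding RNA cannot be told apart in these counts. This gene was chosen for its position, and its values had been seen. It is not the only gene there: LOC115489917, Gm13133 and LOC115489918 also overlap the Prdm16 span. LOC115489917 passed in none of the fits with 1 library left out (log2 fold change 0.44 to 0.69, edgeR adjusted p up to 0.717).

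**Figure D4:**
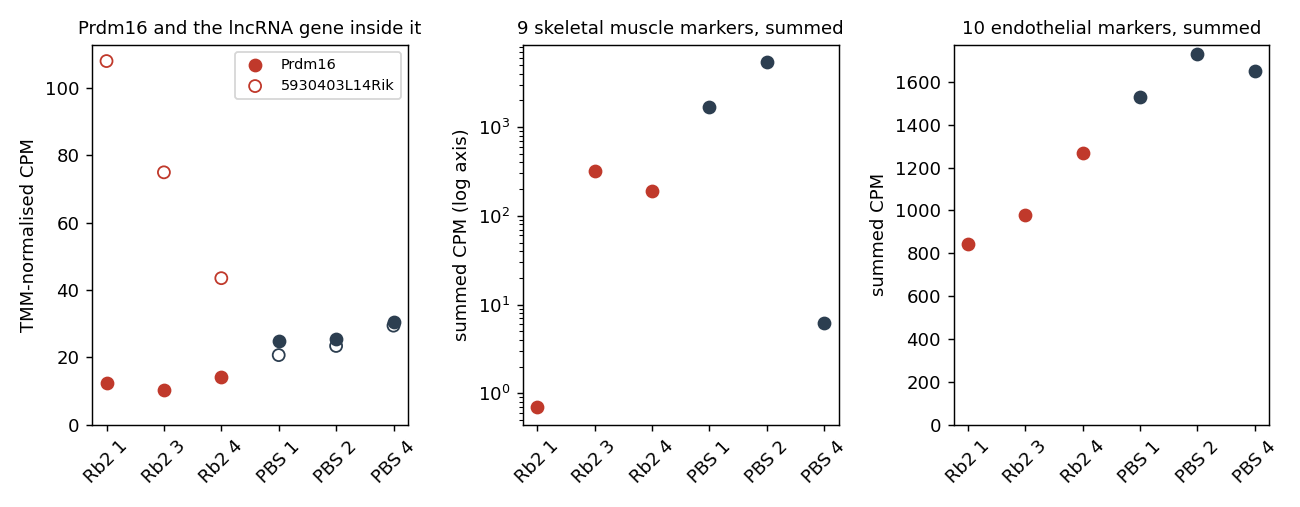
By library, the CPM of Prdm16 (filled) and of 5930403L14Rik, a noncoding RNA gene inside it (open), and the summed CPM of 9 skeletal muscle markers (log axis) and of 10 endothelial markers, with Rb2 in red and PBS in dark. Prdm16 and 5930403L14Rik lie apart in the Rb2 libraries, where 5930403L14Rik reaches 43.5 to 108 CPM, and together in the PBS libraries.

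Libraries differed in other cell types and in a trend with base composition, and these values stand beside the members' changes. The summed level of 9 skeletal muscle markers was 0.697, 316 and 189 CPM in Rb2 1, 3 and 4, against 1690, 5413 and 6.12 CPM in PBS 1, 2 and 4; none of the 9 passed in edgeR (0 had an unadjusted p under 0.05, and 0 passed in DESeq2). PBS 4, almost free of muscle transcripts, was above all Rb2 libraries in Prdm16, Mecom and Zfp516 and below all of them in Ebf1, Ebf2, Zic1 and Lhx8. The same held for PBS 1 and PBS 2, because the groups did not overlap for any of these genes. Rb2 1, the library with the lowest muscle sum, was the highest of all in Ebf2 (49.3 CPM), Zic1 (6.99 CPM) and Lhx8 (3.78 CPM). In Ebf1 the highest was Rb2 3. Apart from the covariate fit given next, the part of muscle RNA in these changes was not tested. With the muscle markers as a covariate 2 members passed (5.39% of all tested genes), Prdm16 (log2 fold change -1.19, adjusted p = 0.00646) and Zfp516 (-0.75, adjusted p = 0.0332), and the adjusted p of the other 5 called members lay between 0.0595 and 0.0851. The log2 fold changes of those 5 in this fit were -0.47 for Mecom, 0.81 for Ebf1, 0.59 for Ebf2, 0.81 for Zic1 and 1.18 for Lhx8. Without the covariate they were -0.46, 0.89, 0.84, 1.12 and 1.47 in the same order. No member passed in edgeR without PBS 1 and PBS 2, a fit in which 5 of the 10 had an unadjusted p under 0.05 and no gene of all tested passed (0%, with 2063 genes under an unadjusted p of 0.05). With library size alone as scaling 4 members passed (7.61% of all tested genes), and with a count minimum of 50 there were 7 (15.9%).

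Of the endothelial markers 4 of 10 fell (Cdh5, Cldn5, Eng and Robo4), with a sum of 845 to 1270 CPM with Rb2 and 1531 to 1730 CPM with PBS. Of the macrophage markers 4 of 7 fell (C1qa, C1qb, C1qc and Csf1r; sums of 47.7 to 62.3 CPM with Rb2 and 74.9 to 95.8 CPM with PBS), and of the mural markers 1 of 7 (Kcnj8; sums of 660 to 737 CPM with Rb2 and 802 to 838 CPM with PBS). None of 9 fibroblast and progenitor markers passed in edgeR, while 5 had an unadjusted p under 0.05 and 5 passed in DESeq2 (sums of 345 to 518 CPM with Rb2 and 501 to 672 CPM with PBS), nor of 6 lymphocyte markers (0.732 to 1.43 CPM with Rb2 and 1.61 to 1.83 CPM with PBS) or of 5 tested Schwann cell and neuron markers (67.8 to 108 CPM with Rb2 and 52.8 to 167 CPM with PBS). Of these lymphocyte markers 1 and of the Schwann cell and neuron markers 0 had an unadjusted p under 0.05, and DESeq2 passed 0 of both. General adipocyte markers, of which none of 6 passed in edgeR or DESeq2 (1 had an unadjusted p under 0.05), summed to 8783 to 10780 CPM with Rb2 and 9927 to 10920 CPM with PBS. The brown adipocyte markers were abundant in all libraries, with sums of 5151 to 7302 CPM with Rb2 and 6326 to 7731 CPM with PBS. In edgeR 1 of 5 fell (Elovl3), while 2 had an unadjusted p under 0.05. DESeq2 passed 2, both lower (Elovl3 and Cox8b). All 5 markers are also among the 24 brown-selective genes below, so these falls are counted there again. Over all tested genes 5.11% fell in edgeR. Of the 4 macrophage markers, C1qc passed in each fit with 1 library left out and Csf1r in none, and none of the 7 passed after correction for GC content and length, described next. The count of called macrophage markers was 3 when Rb2 4 or PBS 4 was dropped and 1 in the other 4 such fits. The endothelial count was 7 with Rb2 4 dropped, 2 with PBS 2 dropped and 3 or 4 in the rest, and Kcnj8 did not pass with Rb2 1 or PBS 1 dropped. The part of these cell types in the members' changes was not tested.

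Base composition also went with the direction of change across all genes. When tested genes were cut into 10 bins by the GC content of their transcripts, the lowest bin held 196 called genes that were higher with Rb2 and 7 that were lower, and the highest bin held 21 and 193. The rising members Ebf1, Ebf2 and Zic1 had transcripts of 43.1%, 45.04% and 45.7% GC and Lhx8 of 50.6%, while Prdm16 and Zfp516 had 53.3% and 53.8%, beside a median of 49.8% over tested genes. Mecom, which fell, had 45.5%, on the low side. After correction for GC content and length 5 members passed, beside 8.03% of all tested genes: Prdm16 (log2 fold change -0.98, adjusted p = 0.0152), Mecom (-0.54, adjusted p = 0.0475), Ebf2 (0.72, adjusted p = 0.0464), Lhx8 (1.56, adjusted p = 0.0423) and Ehmt1. Zfp516 (-0.49, adjusted p = 0.0610), Ebf1 (0.75, adjusted p = 0.0575) and Zic1 (1.01, adjusted p = 0.0507) no longer passed there. Of all called genes 51.1% were higher with TMM factors, 38.7% with library size alone and 61.7% after this correction. The part of base composition in the members' changes was otherwise not tested.

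Of 28 partners and modifiers of PRDM16, EBF2, EHMT1 and ZFP516, 2 rose and 1 fell (median log2 fold change 0.04), a share near the 10.4% of all tested genes that passed. Cebpb, the partner of PRDM16 in the switch from muscle precursor to brown fat cell, was at 68.0, 41.6 and 69.8 CPM in Rb2 1, 3 and 4, against 111, 183 and 161 CPM in PBS 1, 2 and 4 (-1.34 ± 0.25 SE, edgeR adjusted p = 0.0166). It was below every PBS library in every Rb2 library. Ppara, a nuclear receptor of fatty acid oxidation genes, rose (0.75 ± 0.19 SE, edgeR adjusted p = 0.0369), as did Cul2, a scaffold of the ubiquitin ligase that targets PRDM16 for breakdown (0.59 ± 0.15 SE, edgeR adjusted p = 0.0390). Cebpb did not pass without PBS 2 (-1.19, adjusted p = 0.0551) or Rb2 1 (-1.44, adjusted p = 0.0635). After the GC correction its log2 fold change was -0.70 (adjusted p = 0.0587). Of the fits with 1 library left out, Ppara passed only in those without PBS 4 or Rb2 4 (adjusted p up to 0.142 without PBS 2). Cul2 passed only in that without Rb2 4 (up to 0.129 without Rb2 3). The count of called partners was 0 when PBS 2 was dropped (6 had an unadjusted p under 0.05), 1 when PBS 1, Rb2 1 or Rb2 3 was dropped, 3 for PBS 4 and 5 for Rb2 4. Of all tested genes 1.77% passed without PBS 2, 1.95% without PBS 1 and 3.19% without Rb2 1. The share was 3.48% without Rb2 3, 9.09% without PBS 4 and 13.3% without Rb2 4.

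Among 26 paralogs of the PRDM, EBF, ZIC and LHX families, 13 had enough counts to be tested and 7 had no read in any library. Prdm1, which encodes the repressor BLIMP1, was the single one of these 13 that passed, where 10.4% of all tested genes did. It was at 0.838, 2.52 and 2.96 CPM in Rb2 1, 3 and 4, against 0.284, 0.641 and 0.358 CPM in PBS 1, 2 and 4 (2.29 ± 0.51 SE, edgeR adjusted p = 0.0290). Among the fits with 1 library left out it passed only without Rb2 1 (adjusted p up to 0.107, without PBS 1). Of the 13 tested paralogs 5 had an unadjusted p under 0.05, and their median log2 fold change was -0.10. DESeq2's Wald test passed 3, Prdm1, Prdm9 and Ebf3, all higher, where 21.5% of all genes with an adjusted p passed. Ebf3 averaged 49.6 CPM with Rb2 and 35.1 CPM with PBS (log2 fold change 0.50, edgeR adjusted p = 0.0629, DESeq2 adjusted p = 0.0201).

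Genes selective for brown fat moved in both directions, and whether the regulators control them here was not tested. Of 24 brown-selective genes, Ppara among them, 5 rose and 1 fell (median log2 fold change 0.26). Over all tested genes 5.33% rose and 5.11% fell. Slc27a2, an acyl-CoA synthetase of very long-chain fatty acids, averaged 253 ± 40.8 CPM with Rb2 and 62.7 ± 8.62 CPM with PBS (SD, n = 3 each). Slc27a2 (log2 fold change 2.01), Pank1, an enzyme of coenzyme A synthesis (1.15), and Gk, glycerol kinase (1.09), rose with edgeR adjusted p of 0.00166, 0.00950 and 0.0149. Elovl3, a fatty acid elongase, fell (-1.74, edgeR adjusted p = 0.0214). DESeq2's Wald test passed 11 of the list, 8 upward and 3 downward, where 21.5% of all genes with an adjusted p passed. The 3 were Elovl3, Dio2 (-1.38, DESeq2 adjusted p = 0.0478) and Cox8b (-0.65, DESeq2 adjusted p = 0.00816). Slc27a2 passed in each fit with 1 library left out. Pank1 missed when PBS 1 was dropped (adjusted p = 0.0540), and Gk when PBS 1 (0.0632) or PBS 2 (0.0718) was. Elovl3 missed when PBS 1 (0.0728), PBS 2 (0.0851) or Rb2 4 (0.0701) was dropped. The count of called brown-selective genes in these fits was 1 for PBS 1, 2 for PBS 2, 9 for PBS 4, 4 for Rb2 1, 5 for Rb2 3 and 8 for Rb2 4. The shares of all tested genes that passed were 1.95%, 1.77%, 9.09%, 3.19%, 3.48% and 13.3% in the same order.

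Of the white-selective genes that PRDM16 and the CTBP proteins are known to repress, or that mark white fat, 10 of 13 were tested and none passed in edgeR, while 2 had an unadjusted p under 0.05 and DESeq2's Wald test passed 2. Their median log2 fold change was -1.42 with all libraries and -0.47 with PBS 1 left out. Summed over the 13 genes the level was 60.9, 113 and 119 CPM in Rb2 1, 3 and 4, against 396, 203 and 88.8 CPM in PBS 1, 2 and 4, so that PBS 4 lay within the Rb2 range. The smallest p belonged to Wfdc21 (-1.84, edgeR adjusted p = 0.127) and Dpt (-0.92, edgeR adjusted p = 0.129). With PBS 4 left out 2 passed, both lower with Rb2 (Agt, -2.60, and Wfdc21, -2.27). With Rb2 3 left out 1 passed, Serpina3k, and it was higher with Rb2 (2.84, edgeR adjusted p = 0.0407). Of 7 myogenic regulators 3 were tested and none passed in edgeR (1 had an unadjusted p under 0.05, and 1 passed in DESeq2). Mef2c, a muscle and vascular factor, was at -0.70 (edgeR adjusted p = 0.110), and Myf6, a muscle factor, had no read in Rb2 1 and PBS 4 and 9 to 374 in the other libraries (edgeR adjusted p = 0.247). Of 15 interferon genes, a group that PRDM16 represses in adipocytes, Irf7 fell (-0.77 ± 0.18 SE, edgeR adjusted p = 0.0305) and 14 did not pass. Over all tested genes 10.4% passed, 5.11% downward. An unadjusted p under 0.05 was found for 2 of the 15. DESeq2's Wald test passed 2, both lower, Irf7 and Bst2 (-0.66, DESeq2 adjusted p = 0.0144), where 21.5% of all genes with an adjusted p passed. Irf7 passed only without PBS 4 or Rb2 4 among the fits with 1 library left out (adjusted p up to 0.130, without PBS 2).

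**Figure D5:**
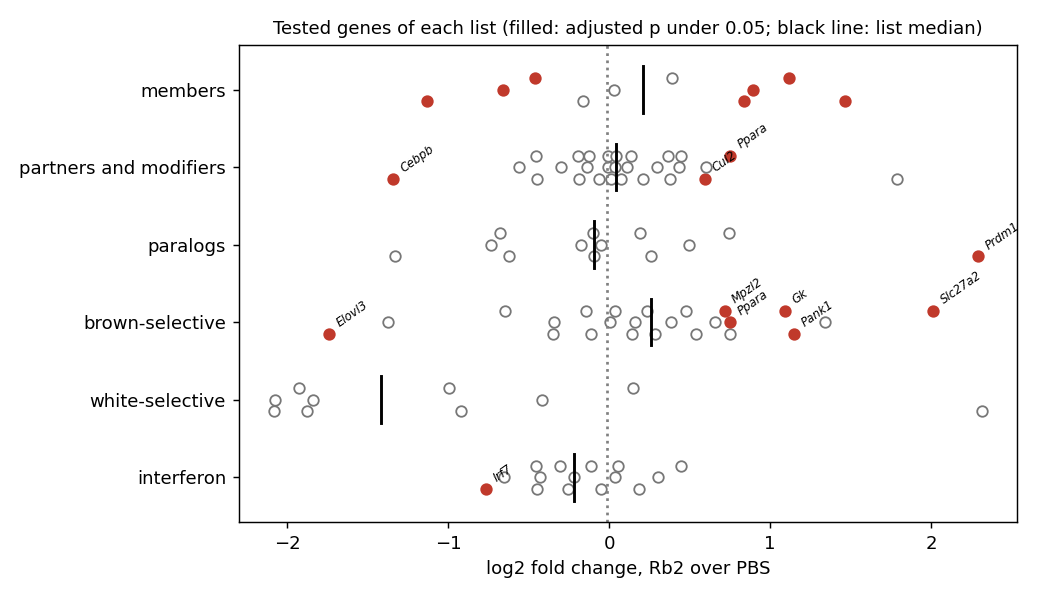
Log2 fold change of Rb2 over PBS (horizontal axis) of each tested gene in 6 lists, filled where the adjusted p was under 0.05, with the list median (black line) and the median of all tested genes (dotted). The 10 regulators spread from -1.13 to 1.47 with 7 filled points, and the 28 partners and modifiers have 3.

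The tested genes (mean of at least 1 CPM) whose log2 CPM over the 6 libraries came closest to that of Prdm16 were Arhgap23, Cd248, Kcnj8, Itprip and Shf. Their root-mean-square difference from the centred Prdm16 profile was 0.0825, 0.0921, 0.0926, 0.109 and 0.113 in that order, and their log2 fold changes were -1.02, -1.13, -1.03, -1.29 and -1.31. Arhgap23 was at 13.8 CPM on average with Rb2 and 27.95 CPM with PBS. The likeness was measured over the same 6 libraries as the group difference.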

How the data were processed

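Messenger RNA of whole brown fat was sequenced from 6 mice, 3 per group. Per the labels' protocols, libraries were poly(A)-selected and strand-marking. The authors deposited whole-number read counts per gene, not normalized; the submitters' processing notes list the build mm10 and, with no roles, HISAT2, StringTie, Bowtie2 and Trimmomatic. Versions, counting program and strand setting: not given in the sources used here. Columns show the group but not which titled sample they are.

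Counts were tested with edgeR 4.0.16 (R 4.3.3; quasi-likelihood F test, TMM factors, robust dispersions, count minimum 10, total minimum 15; 16707 of 45777 genes) with Benjamini-Hochberg adjustment over all tested genes and a threshold of 0.05. The SE is the log2 fold change over the square root of F. Alternatives used DESeq2 1.42.0, limma 3.58.1 (voom), other scalings and filters, left-out libraries, a muscle covariate, and a spline offset for GC content and length (93.6% of tested genes had values, GENCODE M21). Named were all members, up to 4 called genes per other list (2 where none passed), some genes that passed in other fits and the 5 genes most like Prdm16. Members and lists were chosen with earlier results of these data known. The floor of 3 counts covers counting error only.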

Additional observations from a re-analysis of the deposited data

How the results depend on the processing

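Over the 17 alternatives the number of called members (7 with all settings as reported) was 4 with library size alone, 2 with the muscle covariate, 0 without PBS 1 and PBS 2 together and 1 to 7 with 1 library left out. Library size alone kept Prdm16, Zfp516, Ebf1 and Lhx8. For all tested genes the count was 1743, against 3153 in the DESeq2 Wald test, 900 with the muscle covariate, 0 without PBS 1 and PBS 2 (edgeR; 2063 genes had an unadjusted p under 0.05) and 303 to 2269 with 1 library left out. The partners and modifiers (3 as reported) had 7 calls in the Wald test, 5 with a count minimum of 50, 0 without PBS 1 and PBS 2 and 0 to 5 with 1 library left out. The brown-selective genes (6) had 11, 0 without PBS 1 and PBS 2, and 1 to 9, and the white-selective genes (0) had 2 in the Wald test and 0 to 2.

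Estimates changed sign for Ctbp1 with the GC and length offset (0.066) and for Ctbp2 with upper-quartile factors (-0.0016), library size alone (-0.054) and the muscle covariate (-0.035); with 1 library left out Ctbp2 ranged from -0.048 to 0.11. The cause was not tested.

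The column numbers 1 and 4 occur in both groups, but nothing ties equal numbers to each other or to the titles' replicate numbers, and the deviations of equally numbered libraries correlated at -0.197 and -0.215. A replicate block on these numbers left 1 residual degree of freedom; it called 96 genes in all, 0 members, 0 partners, 1 brown-selective and 1 white-selective gene, with Prdm16 at -1.06 (edgeR adjusted p = 0.0887).

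With the union of exons as length the mean level per kilobase was 0.933 for Mecom, 2.06 for Ehmt1, 18.6 for Ctbp1 and 2.28 for Ctbp2, against 2.04, 2.81, 23.1 and 3.94 with the longest transcript. The number of libraries, 3 per group, limits every test.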
